A study of Homo sapiens with 6 samples.

Results

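The 50 genes described here drive the cell through the cycle and through mitosis: cyclins and their kinases, the kinases and checkpoint proteins of the spindle, kinetochore and kinesin genes, the machinery that ends mitosis, and the transcription factors of late cycle genes. They were matched by gene symbol, with no value measured here in the rule, and each symbol matched 1 of the 35410 genes of the deposited table. RNA was profiled by MACE-Seq, a method that reads polyadenylated transcripts from their 3′ ends, in 6 libraries: 3 biological replicates each for the lines SEM::mock and SEM::EGR3. SEM is a human B cell precursor leukemia line labelled as proB cells, and it carries the KMT2A::AFF1 fusion. SEM::mock was transfected with an empty vector, and SEM::EGR3 carries a doxycycline-inducible EGR3 transgene that encodes a zinc finger transcription factor of the early growth response family. Both lines received 1 µg/mL doxycycline for 48 h before RNA extraction, so the controls share the drug but not the transgene. Each group is 1 engineered line, and whether it derived from a single clone is not given in the sources used here, so transgene and line cannot be told apart.

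Cyclins are regulatory subunits that activate cyclin-dependent kinases in turn: D cyclins with CDK4 or CDK6 in early G1 phase, E cyclins with CDK2 at entry into S phase, and B cyclins with CDK1 at entry into mitosis. In mitosis, kinetochores attach chromosomes to the spindle, the spindle checkpoint holds back the anaphase-promoting complex until all are attached, and this complex then marks securin and B cyclins for degradation. Many of these genes are transcribed in late S, G2 and M phase, so that their level in a bulk culture also depends on how many cells are in those phases. In such samples, fewer cycling cells and less RNA per cycling cell cannot be told apart.

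Library totals ranged from 5286115 to 6181388 counts for SEM::mock and from 7293092 to 15106018 counts for SEM::EGR3. EGR3 itself was counted 8, 10 and 6 times in SEM::mock but 9768, 4952 and 5557 times in SEM::EGR3. The SEM::mock libraries went against the proB label: of 15 B lineage markers, 11 had at most 3 counts in each of them. No count at all was found there for EBF1, IGHM, BLK, RAG2 and DNTT. The remaining signal of that list in SEM::mock came mostly from CD24 (746, 920 and 741 counts). Summed over the list, B lineage markers reached 134 to 158 CPM (counts per library scaled to a total of 1000000 after normalization) in SEM::mock and 697 to 730 CPM in SEM::EGR3. By the test described below, 11 of the 12 tested markers were higher in SEM::EGR3, beside 36.5% of all tested genes. CD24 was lower, at 143 ± 11 against 23.4 ± 0.53 CPM (SD, n = 3). In SEM::EGR3, RAG2 had 1, 0 and 0 counts, DNTT 2, 0 and 1 and VPREB1 8, 6 and 5. Both lines held erythroid transcripts, with 15 erythroid markers summing to 5323 to 5680 CPM in SEM::mock and to 6433 to 6655 CPM in SEM::EGR3. The erythroid factor gene GATA1 had 1861, 2072 and 1694 counts in SEM::mock. The 8 KMT2A fusion target genes, among them HOXA7 and FLT3, summed to 158 to 173 CPM in SEM::mock and to 1073 to 1165 CPM in SEM::EGR3. Most of the SEM::mock sum was CDK6, without which the other 7 genes summed to 21.9 to 25.2 CPM against 781 to 824 CPM. In SEM::mock, HOXA7 had no count, FLT3 was counted 1, 0 and 4 times, PROM1 0, 0 and 1 times and HOXA9 1, 2 and 3 times. Myeloid markers summed to 338 to 353 CPM in SEM::mock and to 101 to 103 CPM in SEM::EGR3. T cell markers summed to 86.1 to 97.8 against 61.2 to 66.4 CPM, but single ones moved far in both directions: CD3D went from 57.9 ± 2.3 to 6.24 ± 0.90 CPM and TRBC1 from 31.8 ± 5.0 to 1.70 ± 0.15 CPM (SD, n = 3), while LCK went from 0, 0 and 2 counts to 52.0 ± 1.8 CPM. These markers differed along the same split of the libraries as the comparison below, and their part in its results was not tested. The results cannot be given without the SEM::mock libraries, since these are the whole control group.

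All 50 members passed the filter on low counts, but UBE2C did so only through the SEM::EGR3 libraries, where it was high. With p-values of edgeR's quasi-likelihood test adjusted by Benjamini-Hochberg over 15465 tested genes, 18 members rose in SEM::EGR3, 15 fell and 17 missed the threshold of 0.05, or 17, 15 and 17 without UBE2C. With library totals alone as the scale, the split became 23 higher and 9 lower. Requiring at least 10 counts in every library gave 21 higher and 11 lower of 49. The shares of the main fit were 36% higher and 30% lower, against 36.5% higher and 32.0% lower over all tested genes. In either direction 66% of the members were called, against 68.5% of all tested genes, so the share of calls was near the background. Among tested genes in the members' range of mean CPM, 32.8% were higher and 38.7% lower, or 71.5% in either direction. The 3 SEM::EGR3 libraries lay entirely above or below the 3 SEM::mock libraries for 33 members, 19 above and 14 below, against 70.1% of all tested genes.

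The differences of the members were small. The median log2 fold change (SEM::EGR3 minus SEM::mock) was 0.05 over the members and 0.03 over all tested genes, and the median of its absolute size was 0.26 against 0.46. Among the 7945 tested genes in the members' range of mean CPM, that size was 0.35. Past an absolute log2 fold change of 1 stood only UBE2C, higher, and CCND1, lower, which is 4% of the members, while 25.2% of all tested genes were called with a change of that size. In the members' range of mean CPM this share was 13.5%. The other 48 members lay between -0.99 and 0.96, and 37 of the 50 lay within 0.5 of no change. Summed over the members, the level was 4666, 4757 and 4765 CPM in SEM::mock and 4873, 4777 and 4846 CPM in SEM::EGR3. The ranges of the lines did not overlap, but without UBE2C they did, at 4665 to 4764 CPM in SEM::mock and 4697 to 4790 CPM in SEM::EGR3.

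**Figure D1:**
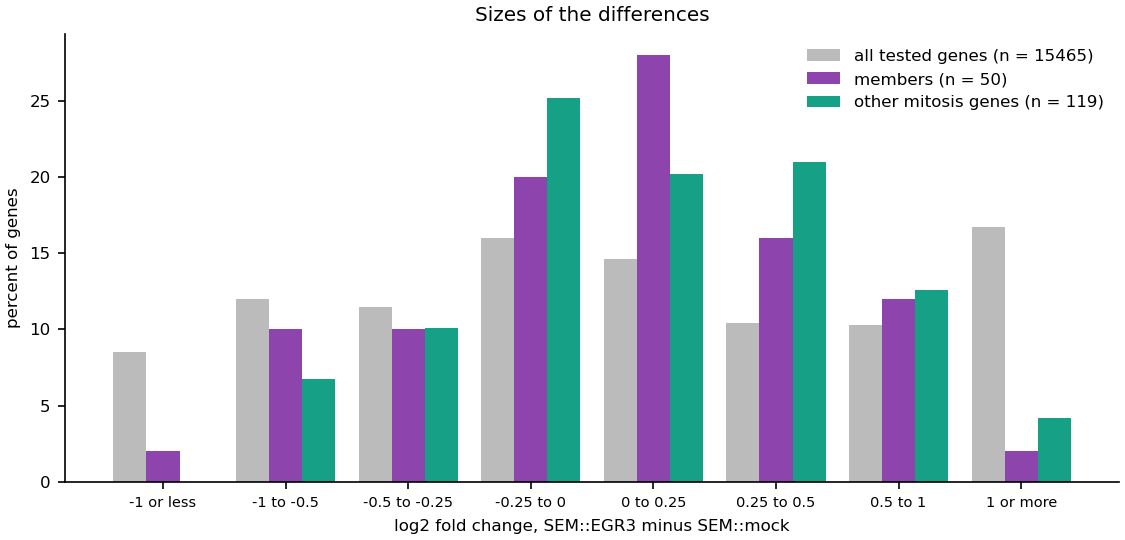
Percent of genes (vertical axis) in each range of log2 fold change between SEM::EGR3 and SEM::mock (horizontal axis), for all 15465 tested genes, the 50 members and 119 other mitosis genes. The outermost ranges hold 8.5% and 16.7% of all tested genes and 2.0% and 2.0% of the members.

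**Figure D2:**
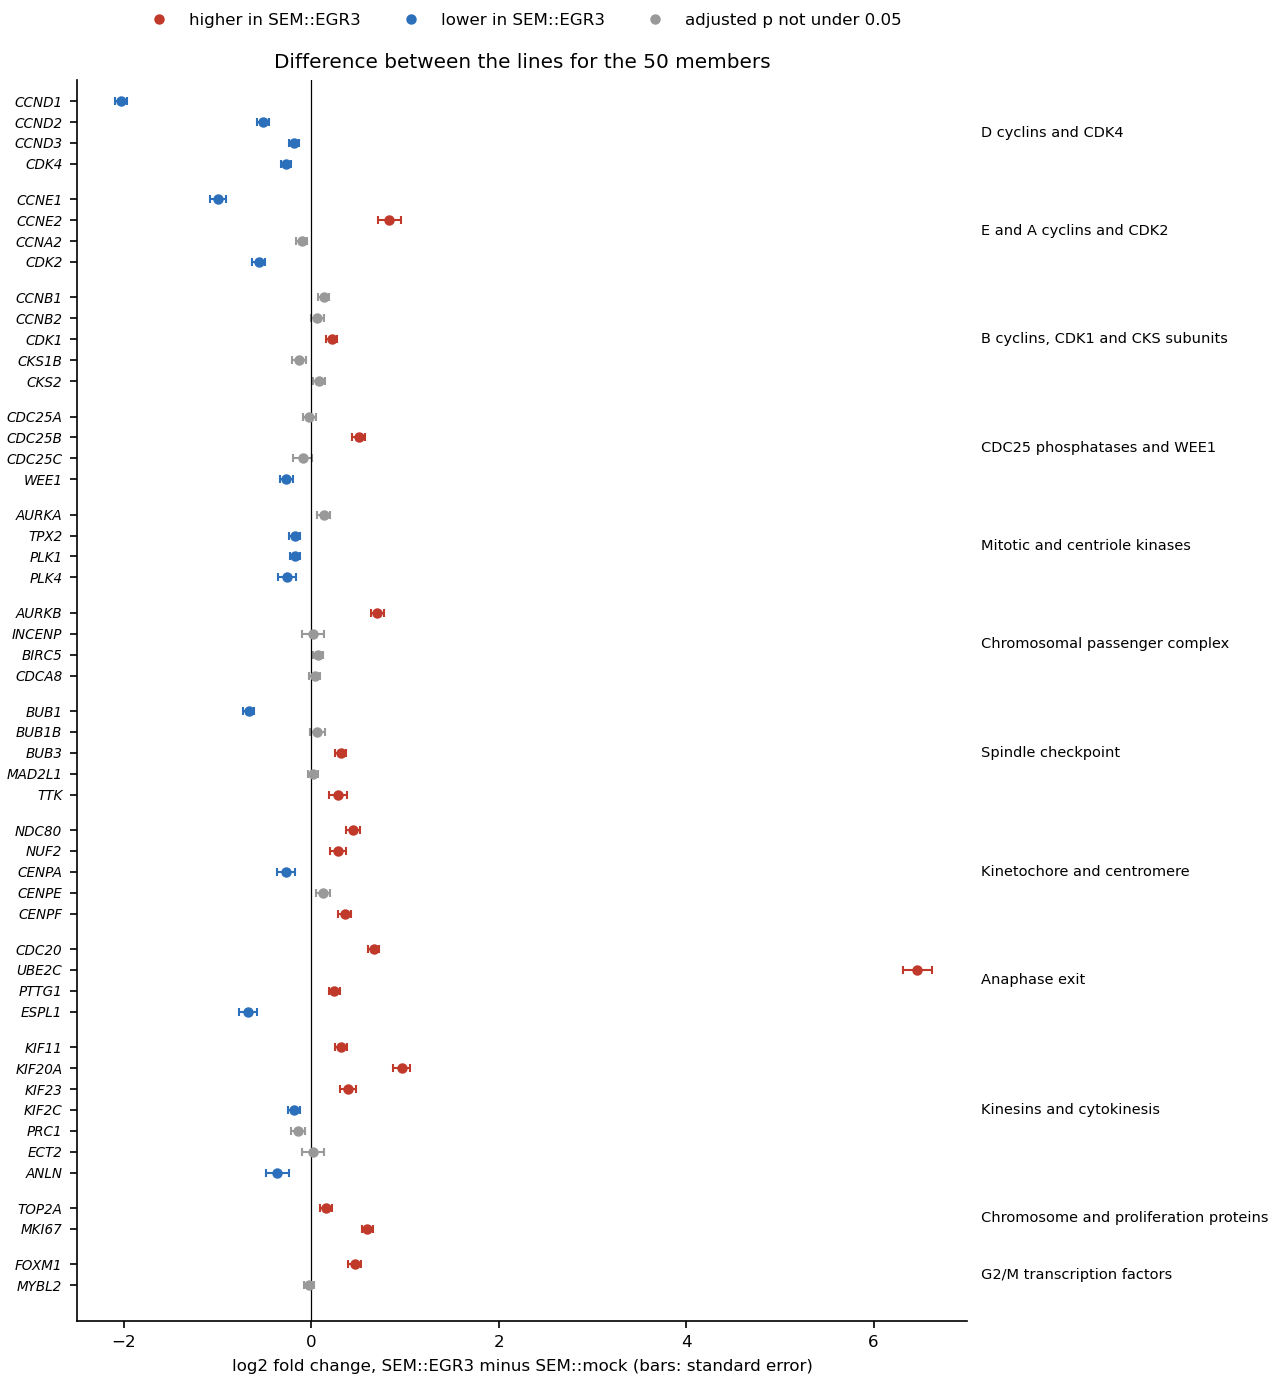
Log2 fold change of each of the 50 members (points, SEM::EGR3 minus SEM::mock, 3 libraries each) with its standard error (bars), grouped by role. Red points are the 18 members higher in SEM::EGR3, blue points the 15 lower ones and grey points the 17 that did not pass the test. UBE2C stands far to the right at 6.47 and CCND1 farthest to the left at -2.03.

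Promoter sequences were available for 38 of the 50 members in the RefSeq table (GRCh38.p14), as 52 windows from 250 bases before to 50 bases after a start site. The cell cycle homology region (CHR, here the letters TTTGAA or TTCGAA on either strand) is a promoter element through which the DREAM and MuvB complexes act on G2/M genes. It was found in 29 of the 52 windows (55.8%), against 16.4% of all 35116 windows. The CCAAT box, bound by NF-Y and common in mitotic promoters, was found on either strand in 67.3% of the members' windows and in 34.6% of all windows. A sequence bound by E2F factors (the letters TTTCGCG, otherwise TTTGGCG, otherwise TTTCCCG, otherwise TTTGCCG, on either strand) was found in 17.3% against 8.67%, and a sequence bound by EGR factors (GCGGGGGCG or otherwise GCGTGGGCG, on either strand) in 7.69% against 5.77%. The motifs were present on both sides of the comparison: a CHR was found for 10 of 13 higher members, 6 of 10 lower members and 10 of 15 members that did not pass the test. For the EGR sequence these numbers were 2 of 13, 1 of 10 and 0 of 15. A letter match is a description of the window and not a measured binding site.

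Shown here, 5′ to 3′ on the strand of the gene, are the 250 bases before the start of a pair of members that rose (KIF20A and CDC20) and of a pair that fell (ESPL1 and CCNE1), with the matched motifs in capitals. They lie at chr5:138178862-138179111 (plus strand), chr1:43358731-43358980 (plus strand), chr12:53268049-53268298 (plus strand) and chr19:29811741-29811990 (plus strand).
KIF20A: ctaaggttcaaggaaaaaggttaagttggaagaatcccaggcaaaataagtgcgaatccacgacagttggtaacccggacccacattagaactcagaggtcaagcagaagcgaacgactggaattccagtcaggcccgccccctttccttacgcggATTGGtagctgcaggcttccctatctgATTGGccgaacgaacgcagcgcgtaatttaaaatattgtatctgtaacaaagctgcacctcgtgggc
CDC20: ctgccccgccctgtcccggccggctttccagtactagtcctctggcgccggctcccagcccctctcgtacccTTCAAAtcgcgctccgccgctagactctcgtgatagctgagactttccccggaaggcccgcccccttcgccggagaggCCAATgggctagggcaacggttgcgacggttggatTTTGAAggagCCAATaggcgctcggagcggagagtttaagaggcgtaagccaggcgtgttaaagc
ESPL1: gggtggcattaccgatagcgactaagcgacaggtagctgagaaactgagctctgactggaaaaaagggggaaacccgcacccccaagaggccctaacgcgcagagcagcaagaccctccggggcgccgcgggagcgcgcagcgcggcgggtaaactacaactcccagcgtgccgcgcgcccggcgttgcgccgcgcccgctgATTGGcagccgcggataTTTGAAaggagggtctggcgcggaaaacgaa
CCNE1: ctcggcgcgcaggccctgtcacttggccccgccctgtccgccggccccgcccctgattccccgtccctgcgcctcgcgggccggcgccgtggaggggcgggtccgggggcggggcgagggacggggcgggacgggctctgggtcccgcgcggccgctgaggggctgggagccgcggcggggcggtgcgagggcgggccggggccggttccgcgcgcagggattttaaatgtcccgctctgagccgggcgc
CDC20 and ESPL1 both hold a CHR and a CCAAT box, and their transcripts differed in opposite directions. The printed stretch of KIF20A holds 2 CCAAT boxes in reverse orientation and no CHR letters, and that of CCNE1 holds none of the 4 motifs.

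Of the members that act in early G1 phase, all 3 D cyclins and CDK4 fell, beside 32.0% of all tested genes. CDK6, described below and no member, rose. CCND1, which encodes cyclin D1 (chr11:69641087-69654474), had the lowest log2 fold change of the members. Its level was 121, 130 and 128 CPM in SEM::mock and 30.7, 31.8 and 30.4 CPM in SEM::EGR3. The lines were far apart and the replicates of each close together, with a mean 4.08-fold higher in SEM::mock. The log2 fold change was -2.03 ± 0.07 (SE, n = 3 per line, edgeR adjusted p = 1.08e-18). An expressed gene on the opposite strand, LTO1, overlaps CCND1 in the annotation, and the use of strand in counting is not given in the sources used here.

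CCND2, which encodes cyclin D2, had 105, 111 and 117 CPM in SEM::mock and 75.3, 76.6 and 81.5 CPM in SEM::EGR3 (log2 fold change -0.51 ± 0.06, edgeR adjusted p = 9.62e-08). CCND3, which encodes cyclin D3, differed less, with a log2 fold change of -0.19 ± 0.05 (edgeR adjusted p = 0.00416). Its call was lost without SEM::EGR3 replicate 1 (edgeR adjusted p = 0.0562). CDK4, the catalytic partner of the D cyclins, went from 256 ± 6.8 to 212 ± 6.2 CPM (SD, n = 3). Its log2 fold change was -0.27 ± 0.05 (edgeR adjusted p = 8.74e-05).

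The unequal changes altered the mix of D cyclins within a library, a measure that no scaling between libraries can move. CCND1 made up 20.7%, 22.1% and 21.6% of the D cyclin counts in SEM::mock and 7.81%, 7.48% and 6.98% in SEM::EGR3. CCND3 took 58.7% to 61.4% in SEM::mock and 73.0% to 74.5% in SEM::EGR3, while the share of CCND2 overlapped between the lines. CDK6, the other kinase partner of the D cyclins and no member, moved against CDK4: 137, 151 and 133 CPM in SEM::mock stood against 341, 292 and 323 CPM in SEM::EGR3 (log2 fold change 1.18 ± 0.06, edgeR adjusted p = 2.44e-14). CDK6 counts per CDK4 count were 0.530 to 0.574 in SEM::mock and 1.42 to 1.56 in SEM::EGR3. CDK6 is also 1 of the 8 KMT2A fusion target genes listed above, and the other 7 were higher in SEM::EGR3 as well.

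**Figure D3:**
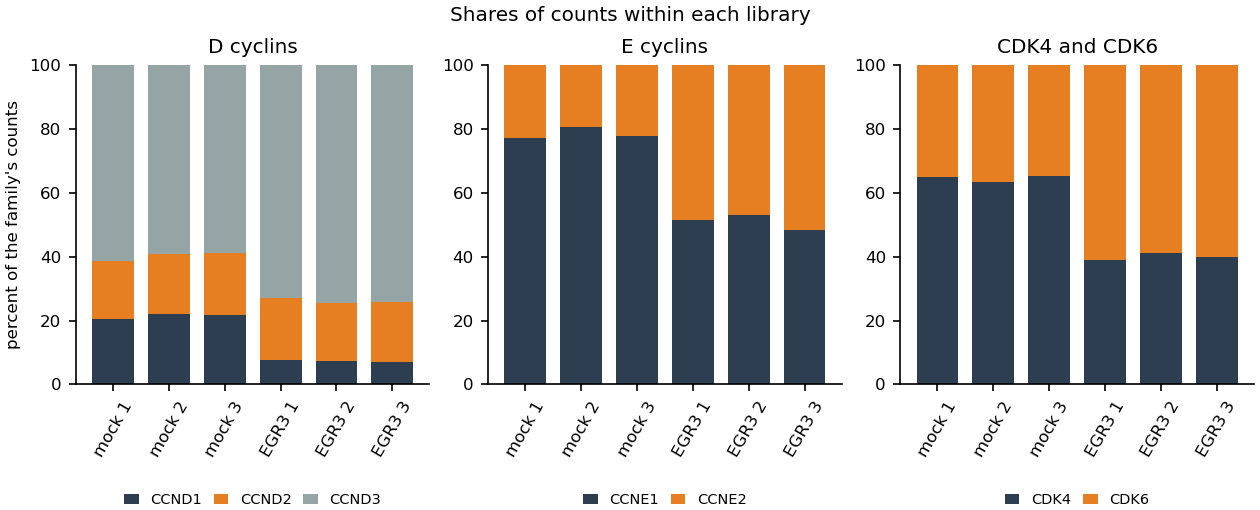
Share of a gene family's counts taken by each member (vertical axis, percent) in each of the 6 libraries (horizontal axis), for the D cyclins, the E cyclins, and CDK4 with CDK6. CCND1 took at least 20.7% of the D cyclin counts in SEM::mock and at most 7.81% in SEM::EGR3, and CCNE2 and CDK6 took larger shares in the 3 SEM::EGR3 libraries.

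At the step into S phase the 2 E cyclin genes moved in opposite directions. CCNE1, which encodes cyclin E1 and whose promoter is shown above, had 55.1, 57.9 and 56.8 CPM in SEM::mock and 30.7, 24.3 and 28.9 CPM in SEM::EGR3. The mean was 2.02-fold higher in SEM::mock, with a log2 fold change of -0.99 ± 0.08 (edgeR adjusted p = 1.45e-10). CCNE2, which encodes cyclin E2, had 16.2, 13.8 and 16.2 CPM in SEM::mock and 28.8, 21.5 and 30.7 CPM in SEM::EGR3. No SEM::EGR3 library of CCNE2 fell to the level of SEM::mock, but SEM::EGR3 replicate 2 lay well below its fellow replicates. The log2 fold change was 0.83 ± 0.13 (edgeR adjusted p = 2.74e-06). INTS8 and NDUFAF6, both expressed, overlap CCNE2 on the opposite strand.

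Per CCNE1 count, 0.239 to 0.294 CCNE2 counts were read in SEM::mock and 0.884 to 1.06 in SEM::EGR3. CDK2, the kinase that both E cyclins activate, fell from 91.0, 89.1 and 81.2 CPM to 63.0, 53.3 and 59.8 CPM (log2 fold change -0.56 ± 0.07, edgeR adjusted p = 1.80e-07). CCNA2, which encodes cyclin A2 of S and G2 phase, did not pass the test, at 145 ± 7.5 against 135 ± 2.6 CPM (edgeR adjusted p = 0.112). It passed without SEM::mock replicate 2 (edgeR adjusted p = 0.0299).

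The genes of the mitotic cyclin kinase differed little. CDK1, the kinase itself, was higher in SEM::EGR3, with 115, 117 and 106 CPM against 131, 129 and 134 CPM (log2 fold change 0.22 ± 0.06, edgeR adjusted p = 0.00177). CCNB1, which encodes cyclin B1, narrowly missed the threshold with 169 ± 6.1 CPM in SEM::mock and 185 ± 13 CPM in SEM::EGR3 (edgeR adjusted p = 0.0501), and it passed without SEM::EGR3 replicate 2 (edgeR adjusted p = 0.00905). The genes of cyclin B2 (CCNB2, log2 fold change 0.06 ± 0.07) and of the small CDK-binding subunits CKS1B (-0.13 ± 0.07) and CKS2 (0.08 ± 0.06) did not pass the test. CKS1B passed without SEM::mock replicate 1 (edgeR adjusted p = 0.00632).

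Of the members whose enzymes switch CDK1 on and off by phosphorylation, the transcript of 1 activator rose and that of the inhibitor fell. CDC25B, a phosphatase that removes inhibitory phosphates from CDK1, had 61.4, 53.0 and 56.2 CPM in SEM::mock and 77.8, 84.1 and 81.2 CPM in SEM::EGR3. All SEM::EGR3 libraries were above all SEM::mock libraries, with a log2 fold change of 0.51 ± 0.07 (edgeR adjusted p = 6.27e-07). WEE1, the kinase that places an inhibitory phosphate, had 73.6 ± 3.9 CPM against 61.1 ± 1.8 CPM (log2 fold change -0.26 ± 0.07, edgeR adjusted p = 0.00112). The related phosphatase genes CDC25A (-0.02 ± 0.07) and CDC25C (-0.09 ± 0.10) did not pass. CDC25B counts per WEE1 count were 0.693 to 0.888 in SEM::mock and 1.24 to 1.42 in SEM::EGR3.

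**Figure D4:**
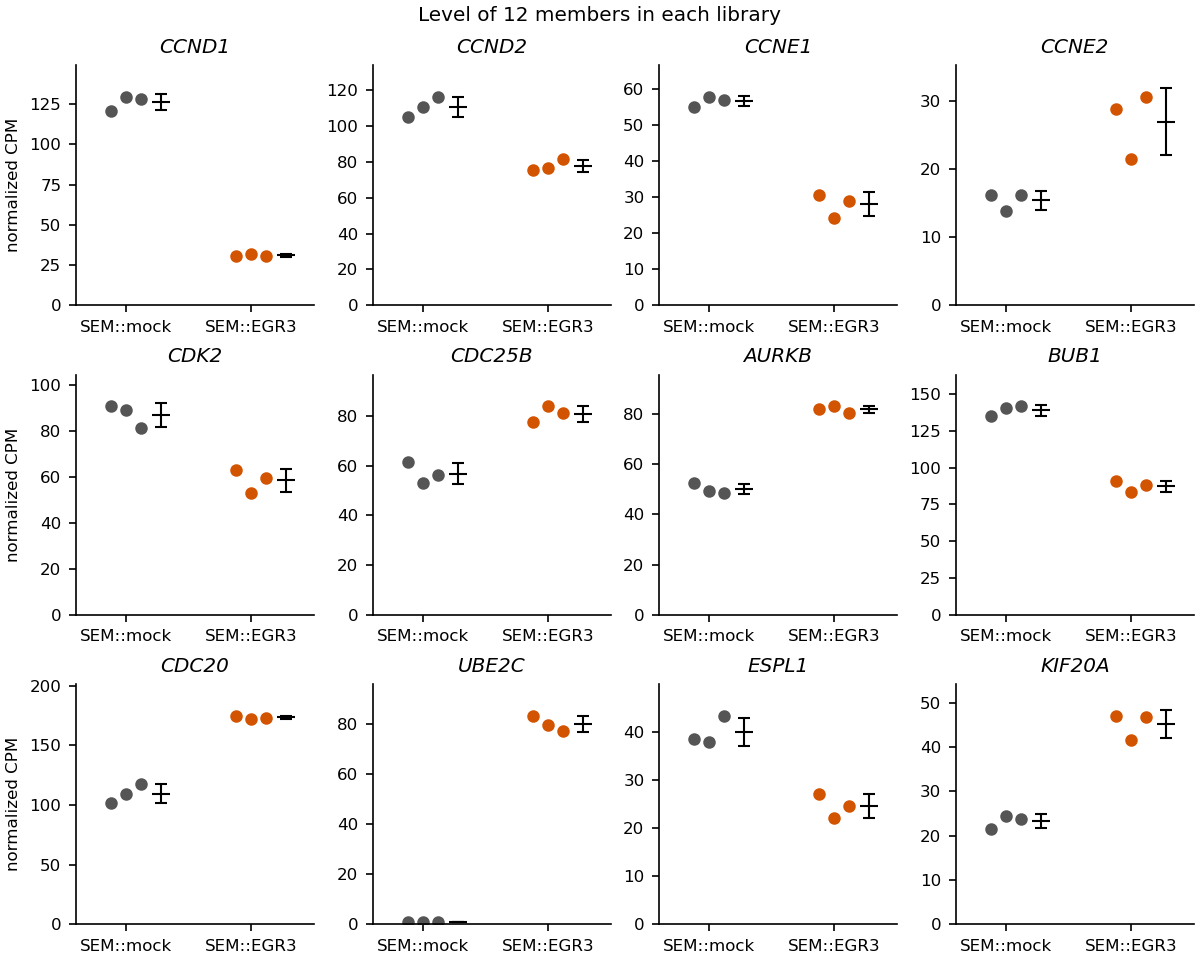
Level of 12 members in each library (points, vertical axis in normalized CPM starting at 0) for SEM::mock and SEM::EGR3, with the mean and SD of the 3 libraries beside them (bars). In each of the 12 panels the libraries of the lines do not overlap, as for 70.1% of all tested genes. UBE2C was close to 0 in SEM::mock.

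The 2 Aurora kinases did not move alike. AURKB, the kinase of the chromosomal passenger complex that corrects faulty chromosome attachments, had 52.6, 49.4 and 48.6 CPM in SEM::mock and 82.0, 83.3 and 80.5 CPM in SEM::EGR3. The replicates of AURKB were tight in both lines, and the log2 fold change was 0.71 ± 0.07 (edgeR adjusted p = 1.15e-09). Its partners in the complex, INCENP, BIRC5 (survivin) and CDCA8 (borealin), had log2 fold changes of 0.01 ± 0.12, 0.08 ± 0.05 and 0.04 ± 0.06 and did not pass the test. AURKA, the Aurora kinase of centrosomes and spindle poles, did not pass either (0.13 ± 0.07, edgeR adjusted p = 0.117). AURKB counts per AURKA count were 0.773 to 0.961 in SEM::mock and 1.20 to 1.35 in SEM::EGR3.

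Small decreases were found for 3 other genes of the spindle poles and centrioles. TPX2, which activates AURKA on spindle microtubules, had a log2 fold change of -0.18 ± 0.06 (edgeR adjusted p = 0.0100), and its call was lost without SEM::EGR3 replicate 3 (edgeR adjusted p = 0.107). PLK1, a kinase needed for centrosome maturation and mitotic exit, had -0.17 ± 0.06 (edgeR adjusted p = 0.00936). PLK4, the kinase that starts centriole duplication, had -0.26 ± 0.10 (edgeR adjusted p = 0.0200), and its call was lost without SEM::mock replicate 3 (edgeR adjusted p = 0.0520) and without SEM::EGR3 replicate 1 (edgeR adjusted p = 0.0990). The calls of TPX2, PLK1 and PLK4 were also lost with library totals alone as the scale, and with at least 10 counts required in every library.

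Among the spindle checkpoint genes, BUB1 stood apart from its fellow members. BUB1, a kinase that recruits checkpoint proteins to kinetochores, had 135, 140 and 142 CPM in SEM::mock and 90.5, 83.0 and 88.4 CPM in SEM::EGR3 (log2 fold change -0.67 ± 0.06, edgeR adjusted p = 3.27e-10). BUB3, the protein that binds BUB1 and carries it to kinetochores, was higher, with 156 ± 10 CPM against 195 ± 1.5 CPM (log2 fold change 0.32 ± 0.06, edgeR adjusted p = 2.87e-05). TTK, the MPS1 kinase at the top of the checkpoint, rose by a log2 fold change of 0.28 ± 0.09 (edgeR adjusted p = 0.00869). BUB1B, which encodes BUBR1, and MAD2L1, which encodes MAD2, did not pass the test (0.07 ± 0.08 and 0.02 ± 0.06). Per BUB1 count, 1.09 to 1.19 BUB3 counts were read in SEM::mock and 2.17 to 2.33 in SEM::EGR3.

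Of the 5 kinetochore and centromere members, 3 were higher and 1 lower, beside 36.5% and 32.0% of all tested genes. NDC80, the microtubule-binding subunit of the complex of the same name, had 57.4, 46.4 and 50.8 CPM in SEM::mock and 69.9, 69.6 and 70.8 CPM in SEM::EGR3 (log2 fold change 0.45 ± 0.07, edgeR adjusted p = 9.50e-06). NUF2, its dimer partner, had 31.1, 33.2 and 36.3 CPM against 44.5, 37.8 and 38.7 CPM (log2 fold change 0.29 ± 0.09, edgeR adjusted p = 0.00626). The call of NUF2 was lost without SEM::mock replicate 1 (edgeR adjusted p = 0.0558) and without SEM::EGR3 replicate 1 (edgeR adjusted p = 0.0734). The other 2 subunits of the complex, which were picked for naming after their values were seen and are no members, differed in the other direction: SPC24 had a log2 fold change of -0.77 ± 0.06 (edgeR adjusted p = 1.06e-11) and SPC25 of -0.53 ± 0.06 (edgeR adjusted p = 6.55e-08). The transcripts of the NDC80 and NUF2 dimer were thus higher in SEM::EGR3, and those of the SPC24 and SPC25 dimer lower. NDC80 counts per SPC24 count were 0.288 to 0.335 in SEM::mock and 0.719 to 0.743 in SEM::EGR3.

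CENPF, a large protein of the outer kinetochore made in G2 phase, was higher by a log2 fold change of 0.36 ± 0.07 (edgeR adjusted p = 7.33e-05). CENPA, the histone H3 variant that marks centromeres, was lower at -0.27 ± 0.09 (edgeR adjusted p = 0.0142). This call rested on SEM::mock replicate 1, which had 47.5 CPM against 35.4 and 39.1 CPM in its fellow replicates, and it was lost without that library (edgeR adjusted p = 0.156). CENPA overlaps SLC35F6 on the same strand, a gene whose counts (357, 333 and 298 in SEM::mock, 453, 239 and 245 in SEM::EGR3) were also lower per library total in SEM::EGR3. CENPE, the kinetochore kinesin, did not pass the test (0.12 ± 0.07, edgeR adjusted p = 0.118).

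UBE2C showed the largest absolute log2 fold change of the 50 members. It encodes the ubiquitin-conjugating enzyme that works with the anaphase-promoting complex and lies at chr20:45812576-45816957. It was counted 4, 6 and 5 times in SEM::mock but 1301, 595 and 702 times in SEM::EGR3. In CPM these were 0.704, 1.00 and 0.977 against 83.6, 79.8 and 77.3, a ratio of means of 89.8. Nearly every read of UBE2C thus came from SEM::EGR3, where the gene reached the range of AURKB and CDC25B. The fitted log2 fold change was 6.47 ± 0.15 (SE), and its size rests on few counts in SEM::mock. With each library left out it ranged from 6.31 to 6.56. Since UBE2C entered the fit only through the line where it was high, its call is a description and no p is given. Among all tested genes, 407 had a log2 fold change as high or higher.

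No other gene of the table overlaps UBE2C in the annotation. DNTTIP1, the nearest protein-coding gene upstream at 1149 bases, was counted in all libraries (183, 235 and 181 in SEM::mock, 794, 386 and 458 in SEM::EGR3). TNNC2, the nearest one downstream at 6257 bases, had at most 11 counts in any library. UBE2C counts per CDC20 count were 0.00691 to 0.00919 in SEM::mock and 0.447 to 0.477 in SEM::EGR3.

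CDC20, the activator of the anaphase-promoting complex and target of the checkpoint, had 102, 109 and 118 CPM in SEM::mock and 175, 172 and 173 CPM in SEM::EGR3. The SEM::EGR3 replicates were almost level, and the log2 fold change was 0.67 ± 0.06 (edgeR adjusted p = 4.05e-10). PTTG1, which encodes securin, the inhibitor of separase, rose from 165 ± 6.8 to 197 ± 12 CPM (log2 fold change 0.25 ± 0.06, edgeR adjusted p = 0.000670). ESPL1, which encodes separase, the protease that opens cohesin rings at anaphase, had 38.5, 37.9 and 43.4 CPM in SEM::mock and 27.1, 22.0 and 24.5 CPM in SEM::EGR3. The transcript of the protease was lower and that of its inhibitor higher, with a log2 fold change of -0.67 ± 0.09 for ESPL1 (edgeR adjusted p = 6.30e-07). Protein was not measured. PTTG1 counts per ESPL1 count were 3.99 to 4.26 in SEM::mock and 6.88 to 9.56 in SEM::EGR3.

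Of the kinesins and cytokinesis genes, 3 rose, 2 fell and 2 did not pass the test, beside 36.5% higher and 32.0% lower of all tested genes. KIF20A, a kinesin of the central spindle that brings passenger proteins to the midzone, had 21.5, 24.5 and 23.8 CPM in SEM::mock and 47.1, 41.6 and 46.8 CPM in SEM::EGR3. All SEM::EGR3 libraries lay well above all SEM::mock libraries, with a log2 fold change of 0.96 ± 0.09 (edgeR adjusted p = 8.04e-10) and a ratio of means of 1.94. BRD8 and CDC23, both expressed, overlap KIF20A on the opposite strand. KIF23, a subunit of centralspindlin, went from 31.8 ± 0.37 to 41.4 ± 2.6 CPM (log2 fold change 0.39 ± 0.08, edgeR adjusted p = 0.000172). KIF11, the motor that pushes the spindle poles apart, rose by a log2 fold change of 0.32 ± 0.07 (edgeR adjusted p = 0.000219).

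KIF2C, a kinesin that removes tubulin from microtubule ends at centromeres, was lower at -0.18 ± 0.06 (edgeR adjusted p = 0.00873). Its call was lost with library totals alone as the scale, and with at least 10 counts required in every library. ANLN, the actin-binding anillin of the cleavage furrow, was lower at -0.36 ± 0.12 (edgeR adjusted p = 0.0112) although its libraries overlapped between the lines. SEM::mock replicate 3 had 33.6 CPM of ANLN against 24.3 and 21.5 CPM in its fellow replicates, and the call was lost without it (edgeR adjusted p = 0.179). PRC1, which bundles the central spindle, and ECT2, the exchange factor that starts furrowing, had log2 fold changes of -0.14 ± 0.07 and 0.02 ± 0.12 and did not pass. PRC1 passed without SEM::mock replicate 2 (edgeR adjusted p = 0.0438).

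MKI67, the chromosome surfactant known as the Ki-67 antigen and a marker of cycling cells, was higher in SEM::EGR3. It had 88.5, 90.4 and 90.4 CPM in SEM::mock and 140, 131 and 136 CPM in SEM::EGR3 (log2 fold change 0.60 ± 0.06, edgeR adjusted p = 2.03e-09). TOP2A, the topoisomerase that untangles sister chromatids, differed by only 0.16 ± 0.06 (edgeR adjusted p = 0.0220), and its libraries overlapped. That call was lost with the replicate number as a block (edgeR adjusted p = 0.0598), and without SEM::mock replicate 1, SEM::mock replicate 2 or SEM::EGR3 replicate 1 (edgeR adjusted p = 0.193, 0.130 and 0.0942). FOXM1, the forkhead factor that activates G2/M genes, had 48.7, 53.0 and 49.4 CPM in SEM::mock and 66.8, 71.5 and 71.7 CPM in SEM::EGR3 (log2 fold change 0.47 ± 0.07, edgeR adjusted p = 2.12e-06). MYBL2, the B-MYB factor that acts with the MuvB core on the same genes, did not pass (-0.02 ± 0.06, edgeR adjusted p = 0.718). FOXM1 counts per MYBL2 count were 0.288 to 0.298 in SEM::mock and 0.391 to 0.434 in SEM::EGR3. RHNO1 overlaps FOXM1 on the opposite strand, with 218, 250 and 235 counts in SEM::mock and 868, 397 and 527 in SEM::EGR3. These were near the counts of FOXM1 itself (277, 318 and 253 against 1040, 533 and 651), and the use of strand in counting is not given.

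Ratios within a library were taken for 16 pairs of related genes, which were picked after the values were seen and therefore carry no test. The libraries of the lines did not overlap for 13 of them, beside 70.1% of all tested genes taken singly. No share over other pairs of genes was computed. The pairs that overlapped were NDC80 per NUF2, CCNB2 per CCNB1 and CKS2 per CKS1B. The genes of a pair are both counted from 3′ ends without a length correction, so a ratio compares the lines and not the 2 genes.

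Beyond the members, 119 other mitosis genes passed the filter, of which 52 were higher, 24 lower and 43 did not pass the test, with a median log2 fold change of 0.09. Of the condensin and cohesin genes, which fold and hold chromatids, 15 of 21 were higher and 1 lower. Examples were NCAPD2 of condensin (58.7 ± 2.7 against 159 ± 6.9 CPM, log2 fold change 1.45 ± 0.06) and the cohesin release factor WAPL (26.1 ± 1.2 against 58.3 ± 1.3 CPM, log2 fold change 1.16 ± 0.08). The cohesin genes STAG1, PDS5B and SMC1A had log2 fold changes of 1.01, 0.89 and 0.86. Of 13 tested subunits of the anaphase-promoting complex, 2 were higher and 5 lower, and UBE2S, a ubiquitin-conjugating enzyme of the same list, was lower too. Over all tested genes, for comparison, 36.5% were higher and 32.0% lower.

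Of the other kinetochore genes 11 of 31 were higher and 6 lower, and of the other spindle and cytokinesis genes 16 of 28 and 5. For these and the following lists, the shares over all tested genes were 36.5% higher and 32.0% lower. KIF15, a kinesin that supports KIF11 at the spindle, had 7.04 ± 0.91 CPM in SEM::mock and 20.5 ± 2.3 CPM in SEM::EGR3 (log2 fold change 1.56 ± 0.14, edgeR adjusted p = 8.23e-10). Among 19 other mitotic kinases, cyclins and regulators 6 were higher and 4 lower, and GTSE1, a G2 and S phase protein, had a log2 fold change of 0.98 ± 0.08. The MuvB core and DREAM genes were split, with 2 of 6 higher and 2 lower. DNA replication genes, which are transcribed earlier in the cycle, were called in 30 of 40 cases, 14 higher and 16 lower, and none passed an absolute log2 fold change of 1. CDC45, a subunit of the replicative helicase, and POLD2, a subunit of polymerase delta, were the named examples, with log2 fold changes of -0.91 ± 0.05 and -0.86 ± 0.06.

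**Figure D5:**
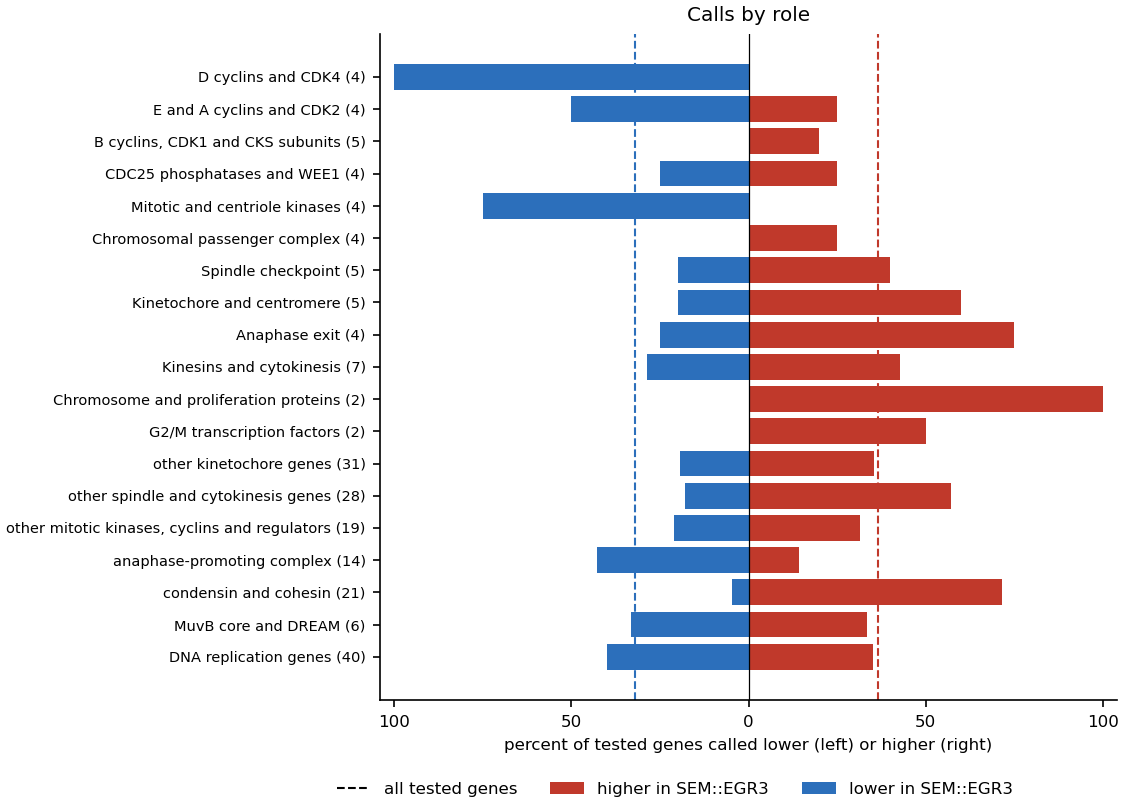
Percent of each list's tested genes that were called lower (blue, to the left) or higher (red, to the right) in SEM::EGR3, with the number of tested genes in brackets. The dashed lines mark the 32.0% lower and 36.5% higher of all tested genes. The D cyclins with CDK4 lie wholly to the left, and condensin and cohesin mostly to the right.

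The lists are short, and their counts are given beside the dashed background lines without a test of the lists. Of the 50 members, 23 overlap another gene of the table in the annotation, and for 13 of these an overlapping gene averaged at least 10 counts per library.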

How the data were processed

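MACE-Seq libraries of SEM::mock and SEM::EGR3 (n = 3 each, grouped by sample title) were analysed. Counts per gene were deposited by the authors without normalization. The submitters' processing notes name bcl2fastq, Bowtie2, HTSeq and GRCh38, while versions, annotation, strand setting and use of molecular identifiers are not given in the sources used here. The column headings spell the line ERG3, which was read as EGR3. The 12 other per-sample columns and the authors' own comparison (fold changes and p-values) were not used.

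Counts were tested in R 4.3.3 with edgeR 4.0.16 (filterByExpr, TMM, glmQLFit, glmQLFTest) over all 6 libraries, with Benjamini-Hochberg adjustment and a threshold of 0.05. Levels are TMM-normalized CPM with SD. Standard errors were derived from the quasi-likelihood F. P-values measure only the spread between these cultures. Replicates differed by more than counting noise (chi-square per degree of freedom 1.71 to 3.12). On simulated data of 15029 genes, 199 of 200 changed genes were recovered with 14 false calls. Positions were taken from GENCODE release 29 and promoters from RefSeq.

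Members and lists were chosen with earlier results of these data known. All members could be named. Of the other lists, those 10 called genes were named whose change was largest among genes averaging 100 or more counts in 1 of the lines. Outside this rule, SPC24 and SPC25 were named after their values were seen, UBE2S as an enzyme set apart from the subunits of its list, and CDC23 as an overlapping gene. MAD1L1 and ELANE were not analysed here. Alternatives were DESeq2 1.42.0, other scalings and filters, thinning, a replicate block, a fold threshold and leaving out each library.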

Additional observations from a re-analysis of the deposited data

How the results depend on the processing

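Over all alternatives, 661 of 699 fitted log2 fold changes of members kept their side of the threshold, 24 lost the call and 14 gained one. Of the members called in the main fit, 0 reversed direction. Some members not called changed sign, such as ECT2, which ranged from -0.097 to 0.14 with each library left out. Without normalization factors the calls of CCND3, TPX2, PLK1, PLK4, CENPA and KIF2C were lost and CCNB1, CKS2, AURKA, BIRC5 and CENPE were called higher, so that 23 members were higher and 9 lower in place of 18 and 15, and the median of all genes shifted by 0.08. When a log2 fold change of 1 in size was also required, the 10593 calls fell to 3896 (2581 higher and 1315 lower), the members to 1 higher and 1 lower, and the other mitosis genes to 5 higher and 0 lower. Requiring 10 counts in every library left out UBE2C, which could not be fitted. The calls of TPX2, PLK1, PLK4 and KIF2C were then lost, and CCNB1, AURKA, BIRC5 and CENPE were called higher. This gave 21 higher and 11 lower of 49 members. PLK4 also lost its call with DESeq2 and with all libraries thinned to the smallest total. Leaving out each library gave 9938 to 10499 calls (5312 to 5570 higher, 4626 to 4940 lower), with 16 to 19 members higher and 13 to 17 lower, and 45 to 56 other mitosis genes higher and 22 to 25 lower.

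The replicate numbers did not pair the libraries: the deviations of same-numbered libraries correlated at -0.25, -0.18 and -0.07. With the replicate number as a block, 10082 genes were called (5388 higher, 4694 lower), 17 members were higher and 15 lower, and 52 other mitosis genes were higher and 22 lower. The shallower SEM::mock libraries limit the precision of low levels such as that of UBE2C.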
